A study of Mus musculus with 4 samples.

Results

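Imprinted genes are read from only 1 of the 2 parental chromosomes, and 42 known imprinted mouse genes were followed here among 52636 genes counted in sorted mouse kidney cells. The RNA came from cells purified by fluorescence-activated sorting, with control libraries on 1 side and libraries labelled Brg1-cKO on the other. In mouse genetics cKO commonly stands for conditional knockout. Brg1 is the ATPase of SWI/SNF chromatin remodelling complexes and is encoded by Smarca4. Each group had 2 libraries, and each library was made from 3000 cells. The deleting allele, the sorting marker, the age and the strain of the mice, and the genotype of the controls are not stated in the labels used here. The labels do not say that libraries of 1 group came from different animals, so p-values here reflect how these libraries differ, and that spread may be technical only. The 42 genes were matched by symbol to 1 gene identifier each, and 39 of them passed the filter on low counts. The 3 that did not were Dlk1, Meg3 and Rian.

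Most imprinted genes lie in clusters. A differentially methylated control region, laid down in 1 parent's germ line, sets which chromosome is read, often through a long noncoding RNA or through the insulator protein CTCF. Many of the paternally expressed genes promote fetal growth and many of the maternally expressed ones restrain it, and in the developing kidney Igf2, H19, Mest and Cdkn1c are known for their high expression. The counts do not separate the parental alleles, so a level here is the sum of both chromosomes. By the usual assignment, 22 of the 42 genes were paternally expressed and 17 maternally expressed, while for Gnas, H13 and Inpp5f the parental allele depends on the transcript. For 7 of the 17 (Copg2, Ube3a, Grb10, Commd1, Blcap, Trappc9 and Asb4) the maternal bias is described mainly in some tissues. Together the genes fall in 21 clusters or single loci.

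The promoters of Mest, Peg3 and Zim1 are shown because these genes of 2 imprinted clusters were lower in both Brg1-cKO libraries. Each sequence is the 250 bases before a start site of the gene, 5′ to 3′ on the gene's strand, from RefSeq on build GRCm38.p6. Capitals mark the 6 letters TGCCGC, or GCGGCA where they lie on the other strand. TGCCGC is the motif that ZFP57, a zinc finger protein that protects imprints, is known to bind when methylated. The Mest window is chr6:30737800-30738049 on the plus strand, the Peg3 window chr7:6730420-6730669 and the Zim1 window chr7:6696433-6696682, both on the minus strand.
Mest: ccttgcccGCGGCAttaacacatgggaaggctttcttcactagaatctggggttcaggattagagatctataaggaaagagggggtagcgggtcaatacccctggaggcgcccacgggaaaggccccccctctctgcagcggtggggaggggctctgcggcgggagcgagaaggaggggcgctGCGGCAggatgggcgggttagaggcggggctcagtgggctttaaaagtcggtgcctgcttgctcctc
Peg3: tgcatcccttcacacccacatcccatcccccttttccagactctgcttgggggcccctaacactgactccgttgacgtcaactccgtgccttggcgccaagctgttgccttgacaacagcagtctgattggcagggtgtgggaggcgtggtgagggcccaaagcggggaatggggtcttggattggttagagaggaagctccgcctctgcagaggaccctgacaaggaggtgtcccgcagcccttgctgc
Zim1: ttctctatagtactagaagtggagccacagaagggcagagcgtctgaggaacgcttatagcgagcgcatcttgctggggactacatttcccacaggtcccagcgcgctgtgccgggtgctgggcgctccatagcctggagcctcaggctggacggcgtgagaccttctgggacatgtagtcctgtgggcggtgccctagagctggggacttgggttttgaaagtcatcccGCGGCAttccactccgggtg
The Mest window shown held the motif at 2 places, the Zim1 window at 1 place, and the Peg3 window at none. Mest has 3 windows in the table: the one shown was picked because it holds the motif, another starts 3 bases further on, and the third, chr6:30733256-30733505, has no match. Of all 32851 promoter windows of this length, 8.68% held it. Windows were found for 35 of the 42 genes, and 6 of these (Copg2, Meg3, Mest, Nap1l5, Plagl1 and Zim1) had it in at least 1 window, against 9.84% of all 27025 genes. The Peg3 window overlaps that of Usp29, which starts on the opposite strand, by 163 bases. A match describes the letters of the window only.

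Depth differed between the groups. Gene counts were 35411905 and 37999342 in the controls and 14645665 and 10922272 in Brg1-cKO, and the share of uniquely aligned reads outside any counted gene was 15.4% to 16.5% against 49.5% to 57.2%. Values below are counts per 1000000 reads in genes (CPM), on library sizes scaled by the trimmed mean of M-values (TMM). The targeted Smarca4 stood at 894 and 933 CPM in the controls and 757 and 688 CPM in Brg1-cKO (log2 fold change -0.34, SE 0.09, edgeR adjusted p = 0.167), and its counts can include exons outside a deleted part. The kidney progenitor markers Six2, Eya1 and Wt1 were present in all 4 libraries (Six2 at 126 to 241 CPM). Xist, of the inactive X chromosome, was at 243 and 216 CPM in control and 832 and 1200 CPM in Brg1-cKO, and the Y-linked Ddx3y at 75.6 and 78.4 CPM against 1.04 and 3.26 CPM. The part of sex in the results was not tested. The common coefficient of biological variation was 0.174 between the controls and 1.15 between the Brg1-cKO libraries. Exact tests of 2 against 2 libraries cannot give a two-sided p under 0.33.

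H19 and Igf2 stood out in level. On a per-length scale (RPKM, CPM per kilobase of annotated exon) H19 was at 1332 RPKM in control, rank 9 of 52403 genes, and Igf2 at 445 RPKM, rank 29. Mest followed at 301 RPKM (rank 53), Cdkn1c at 267 RPKM (rank 62), Grb10 at 175 RPKM (rank 131) and Peg3 at 101 RPKM (rank 308). In Brg1-cKO, Cdkn1c at 433 RPKM (rank 28) stood above Igf2 at 351 RPKM (rank 37) and Mest at 152 RPKM (rank 158), whereas in control it stood below both. The 42 genes together took 1.33% and 1.31% of gene counts in the controls and 1.05% and 1.10% in Brg1-cKO. At the other end, 12 of the 42 stayed under a mean of 10 CPM in both groups.

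**Figure D1:**
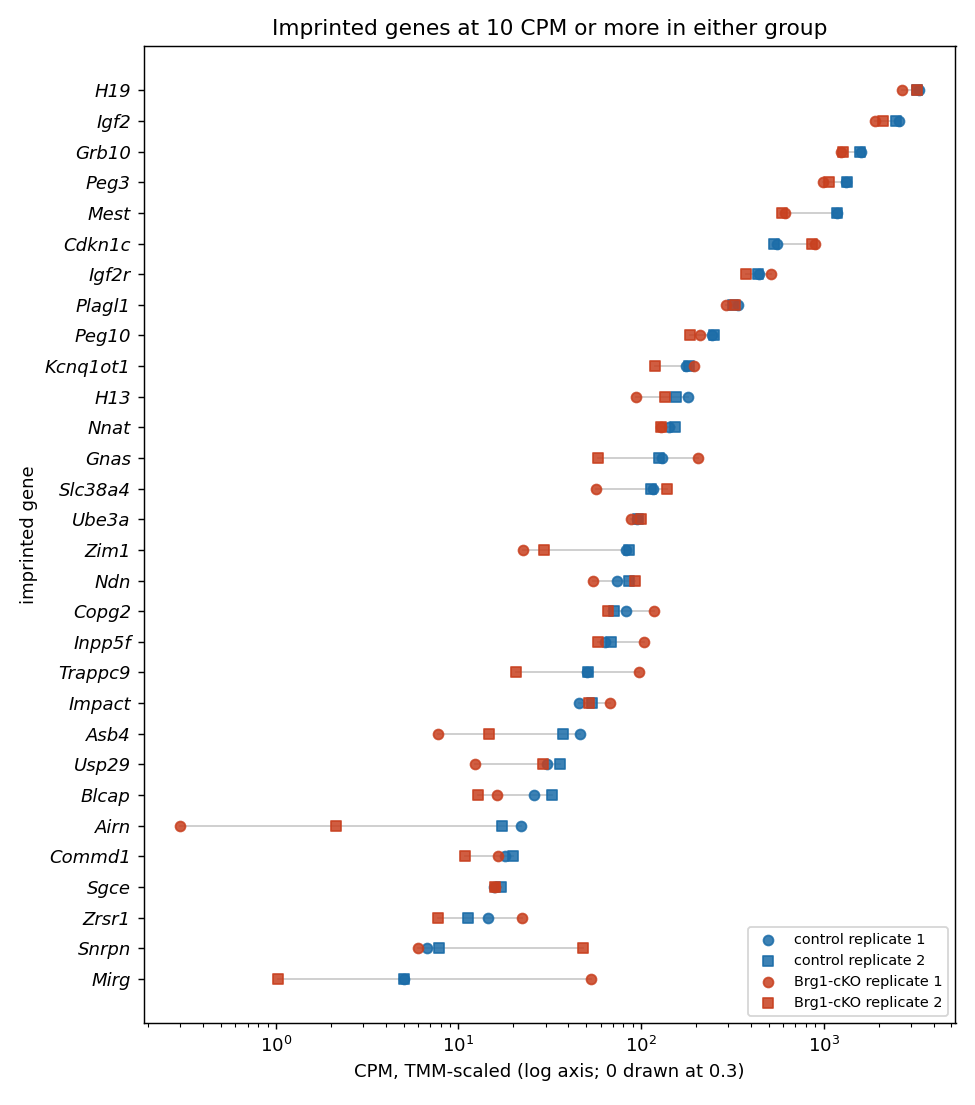
Level of the 30 imprinted genes with a mean of 10 CPM or more in either group (TMM-scaled CPM, log axis), with 1 point per library, ordered by the control mean; a count of 0 (Airn in Brg1-cKO replicate 1) is drawn at 0.3. The Brg1-cKO points of Mest and Zim1 lie left of both controls, those of Cdkn1c lie right of both, and those of Gnas, Trappc9 and Mirg lie on both sides.

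How the level of each imprinted gene differed where Brg1 was targeted is asked by setting Brg1-cKO against control. More of these genes were lower than higher, with Asb4, Zim1 and Mest the furthest below control by fold among those at 10 CPM or more with an unadjusted p under 0.05, and Cdkn1c the only gene higher in both Brg1-cKO libraries. With edgeR's quasi-likelihood test, none of the 39 tested had an adjusted p under 0.05, and 0% of all 18172 genes tested had one. At an unadjusted p under 0.05, 9 of the 39 were lower, against 12.9% of all genes tested, and 1 was higher, against 5.44%. Both Brg1-cKO libraries lay below both controls for 17 of the 39 (34.5% of all genes) above both for 1 (17.5%), and on both sides for 16 (36.8%). With RLE scaling, 2 lay above both. Kcnq1, Phlda2 and Rasgrf1, counted in both the 9 and the 17, had 0 counts in both Brg1-cKO libraries. They passed the low-count filter through the controls alone, so they could only come out lower. Among the 30 genes at 10 CPM or more in either group, 6 were lower and 1 higher at an unadjusted p under 0.05, where all genes at that level had 5.22% and 7.66%. Of the same 30, 13 lay below both controls and 1 above, against 26.2% and 23.7%. Other tools did make calls: at an adjusted p of 0.05, DESeq2 called 6 imprinted genes (11.1% of all genes with an adjusted p), edgeR's likelihood ratio test 7 (13.6%) and limma-voom 2 (1.80%). Each of the 3 called Mest and Cdkn1c, on the same counts.

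The log2 fold changes of the 2 parental classes are given beside those of all genes tested, of which 9625 of 18172 were below 0. Of the 21 paternally expressed genes tested, 17 were below 0, and the median was -0.24. Of the 15 maternally expressed genes, 9 were below 0 and the median was -0.15, where all genes tested had a median of -0.06. Setting genes at 0 counts to their bound could not move either median, because those bounds also lie below it. Without Brg1-cKO replicate 1 the maternal median was -0.83 and the paternal one -0.30, where all genes tested had -0.4. Without replicate 2 the maternal and paternal medians were -0.32 and -0.31, where all genes tested had -0.581. Only the maternal median without replicate 1 was thus below that of all genes in the same fit. At 10 CPM or more, 7 of 15 paternally expressed genes and 5 of 12 maternally expressed ones lay below both controls. Of all genes at that level, 26.2% did. The difference between the 2 classes was not tested.

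**Figure D2:**
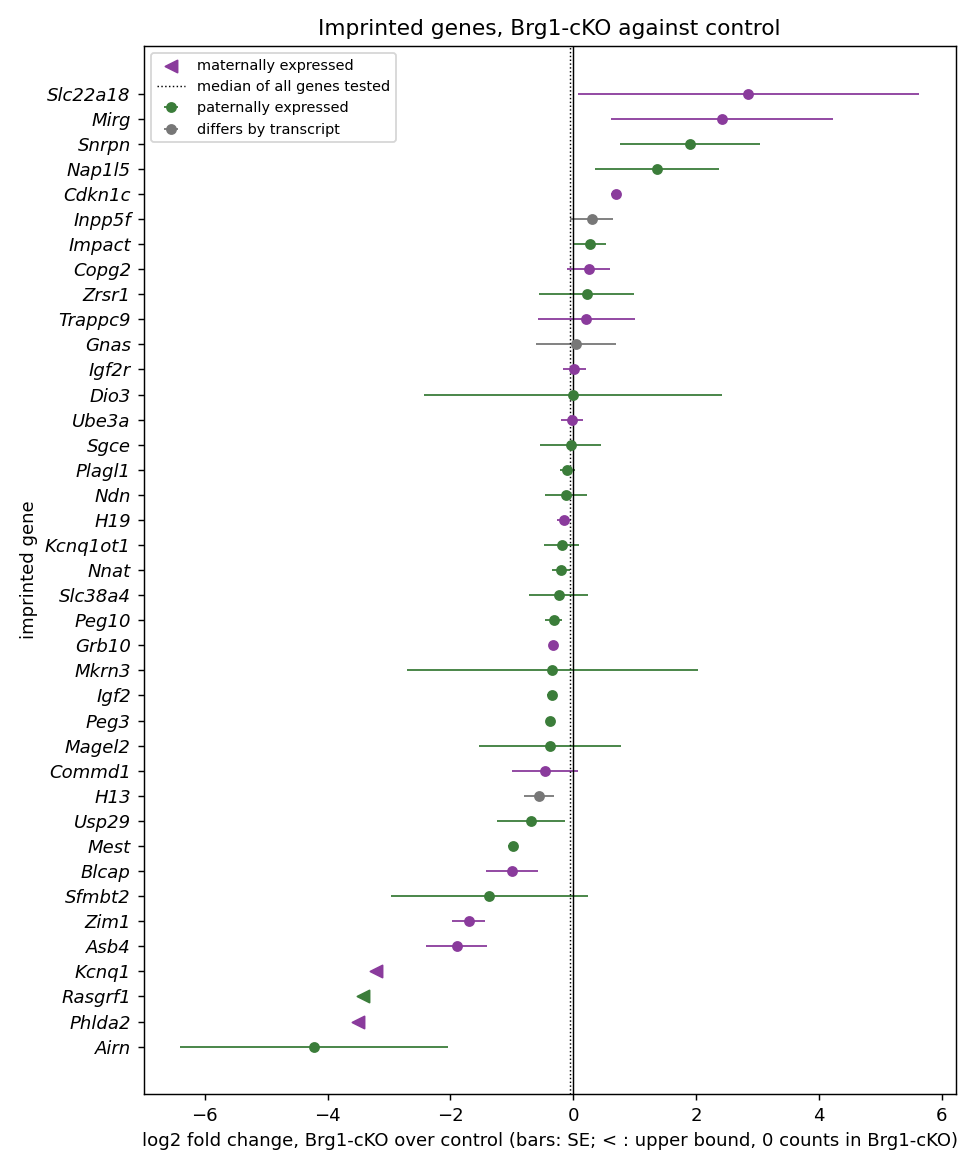
Log2 fold change of Brg1-cKO over control for the 39 imprinted genes tested, coloured by the parental allele expressed; bars are standard errors from edgeR, arrowheads are upper bounds for the 3 genes with no count in either Brg1-cKO library, and the dotted line is the median of all genes tested (-0.06). Mest, Zim1 and Asb4 lie left of 0 by more than their bars and Cdkn1c right of it, while the bars of the scarce genes span several log2 units.

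Mest is a paternally expressed gene of mesodermal tissues that encodes a protein of the alpha/beta hydrolase fold. It stood at 1186 and 1187 CPM in the controls and at 614 and 588 CPM in Brg1-cKO. The 2 Brg1-cKO libraries were close to each other at 0.507 of the control mean, far from both controls. This made -0.98 on the log2 scale (SE 0.07, edgeR adjusted p = 0.166). Its adjusted p was 2.68e-23 with DESeq2 and 0.0400 with limma-voom, and with any 1 library left out the log2 fold change stayed between -1.04 and -0.97. Mest (ENSMUSG00000051855) lies on chromosome 6 from 30723547 to 30748465 (mm10) on the plus strand. Its end shares exon sequence, 23.1% of its annotated exon bases, with the antisense gene Copg2. Unless the counting used strand, which was not given, reads from such a pair cannot be told apart. Copg2, which encodes a coatomer subunit and is described as maternally expressed in some tissues, was at 82.3 and 71.5 CPM in control and at 117 and 66.1 CPM in Brg1-cKO, so its groups overlapped. The ratio of Mest to Copg2 counts, which no scaling of libraries can change, was 14.4 and 16.6 in control and 5.25 and 8.90 in Brg1-cKO.

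The Peg3 cluster on chromosome 7 held 3 of the genes, each below both controls in both Brg1-cKO libraries. Peg3 encodes a large zinc finger protein and Usp29 a ubiquitin-specific peptidase, both paternally expressed from the shared promoter shown above. Zim1, the maternally expressed zinc finger gene next to them, was at 82.4 and 85.9 CPM in control and at 22.5 and 29.3 CPM in Brg1-cKO. Its groups were far apart (log2 fold change -1.70, SE 0.27, edgeR adjusted p = 0.166; 1.81e-06 with DESeq2). Peg3 was at 1327 and 1350 CPM against 992 and 1075 CPM. This smaller difference also left the groups apart, at -0.37 on the log2 scale (SE 0.08, edgeR adjusted p = 0.166). Usp29 was at 30.5 and 36.1 CPM against 12.3 and 29.0 CPM, lower in both Brg1-cKO libraries but by very different amounts (log2 fold change -0.69, SE 0.55). Peg3 counts were 16.1 and 15.7 times those of Zim1 in control and 44.2 and 36.7 times in Brg1-cKO, so the maternally expressed neighbour was lower by more. Zim1 lies from 6671269 to 6696450 and Peg3 from 6703892 to 6730431, both on the minus strand.

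In the Peg10 cluster on chromosome 6, 2 of the 3 genes among the 42 lay below both controls. So did Pon2, an imprinted gene of this cluster outside the 42 named after its values were seen. It was at 17.7 and 15.5 CPM in control and 0.278 and 2.79 CPM in Brg1-cKO (log2 fold change -3.44, SE 1.41). Others of the cluster outside the 42 did not all go this way. Casd1 was at 81.4 and 70.7 CPM against 31.6 and 134 CPM, and Ppp1r9a at 127 and 127 CPM against 105 and 206 CPM. Both of these, and the scarce Pon3, had Brg1-cKO libraries on both sides of the controls. Calcr and Tfpi2 had 0 counts in both Brg1-cKO libraries and failed the low-count filter. Asb4, an ankyrin repeat protein with a SOCS box, was at 46.1 and 37.2 CPM in control and at 7.72 and 14.7 CPM in Brg1-cKO. The Brg1-cKO libraries were below both controls, by -1.89 on the log2 scale (SE 0.50, edgeR adjusted p = 0.168), and DESeq2 gave an adjusted p of 0.0108. Peg10, a gene derived from a retrotransposon that is needed in the placenta, was at 244 and 251 CPM against 211 and 186 CPM (log2 fold change -0.32, SE 0.13). Sgce, the epsilon-sarcoglycan that shares its promoter region with Peg10, was at 15.6 and 17.1 CPM against 15.9 and 15.9 CPM, with overlapping groups. Asb4 lies from 5383386 to 5433022 on the plus strand.

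Cdkn1c, which encodes the cyclin-dependent kinase inhibitor p57 and marks cells that leave the cell cycle, was the exception. It was at 555 and 534 CPM in control and at 899 and 865 CPM in Brg1-cKO. Both Brg1-cKO libraries were well above both controls, by 0.70 on the log2 scale (SE 0.08, edgeR adjusted p = 0.166). The adjusted p was 3.46e-13 with DESeq2, 0.0466 with limma-voom, which became 0.0557 once each group had its own weight. Cdkn1c is also a known podocyte gene. The other 11 genes of a podocyte marker list all lay above both controls in both Brg1-cKO libraries, against 23.7% of all genes at 10 CPM or more. They summed to 879 and 877 CPM in control and 3367 and 3041 CPM in Brg1-cKO. Their part in the Cdkn1c level was not tested. In these bulk samples, fewer or more cells of a type and less or more RNA per cell cannot be told apart. Cdkn1c (chromosome 7, 143458339 to 143461050, minus strand) shares 30.7% of its exon bases with an antisense predicted gene, Gm44732.

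The other genes around Cdkn1c lay in several directions. Osbpl5 and Nap1l4, imprinted neighbours outside the 42 named after their values were seen, lay above both controls. Osbpl5, a lipid transfer protein gene, was at 36.1 and 35.3 CPM in control and 60.1 and 52.5 CPM in Brg1-cKO, and Nap1l4, a histone chaperone gene, at 244 and 239.5 CPM against 266 and 307 CPM. Neither reached an unadjusted p of 0.05 in edgeR. Other neighbours outside the 42 differed from these. Tssc4 lay below both controls, at 41.5 and 39.1 CPM against 36.3 and 32.8 CPM. Cd81 lay on both sides of them, at 148 and 148 CPM against 69.15 and 177 CPM. Tnfrsf23 was scarce, with overlapping groups. Tspan32 and Ascl2, also scarce in control, had 0 counts in both Brg1-cKO libraries. Kcnq1ot1, the long noncoding RNA that silences this cluster on the paternal chromosome, was at 175 and 182 CPM in control and at 194 and 119 CPM in Brg1-cKO, on both sides of the controls. It is annotated as 1 unspliced exon of 93092 bases, so reads from anywhere in that stretch are counted. Cdkn1c counts were 3.17 and 2.93 times those of Kcnq1ot1 in control and 4.62 and 7.28 times in Brg1-cKO. Kcnq1, a potassium channel gene, and Phlda2, which encodes a pleckstrin homology protein that restrains placental growth, were scarce. Kcnq1 had 31 and 52 counts in the controls and Phlda2 had 69 and 31, and both had 0 counts in both Brg1-cKO libraries. Against 3 counts over the group, Kcnq1 was at least 9.23-fold lower and Phlda2 at least 11.4-fold lower. Rasgrf1, a paternally expressed Ras exchange factor on chromosome 9, was also at 0 (53 and 42 counts in the controls, at least 10.7-fold lower). At the control level, 15.9 and 11.9 counts of Kcnq1 would have been seen in the 2 Brg1-cKO libraries. Of all tested genes at 1 to 2 CPM in control, 29.0% had 0 counts in both Brg1-cKO libraries. Slc22a18, a membrane transporter gene, had 32 and 16 counts in the controls and 0 and 102 in Brg1-cKO.

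The neighbours H19 and Igf2, read from opposite parental chromosomes with shared enhancers, were both at high level in all libraries. Igf2, the fetal insulin-like growth factor, was at 2598 and 2493 CPM in control and at 1901 and 2112 CPM in Brg1-cKO. Its groups did not overlap, and its log2 fold change was -0.34 (SE 0.08, edgeR adjusted p = 0.166; 0.0574 with DESeq2). H19, a noncoding RNA and the host of a microRNA, was at 3312 and 3239 CPM against 2670 and 3248 CPM. Here Brg1-cKO replicate 2 lay between the controls, and the log2 fold change was -0.15 (SE 0.11, edgeR adjusted p = 0.613). The ratio of Igf2 to H19 counts was 0.784 and 0.770 in control and 0.712 and 0.650 in Brg1-cKO, below both controls. The difference averaged -0.19 on the log2 scale, where counting error within a library had a standard error of at most 0.0123. It was not tested over libraries, and the 2 Brg1-cKO ratios differed from each other by more than the controls did.

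**Figure D3:**
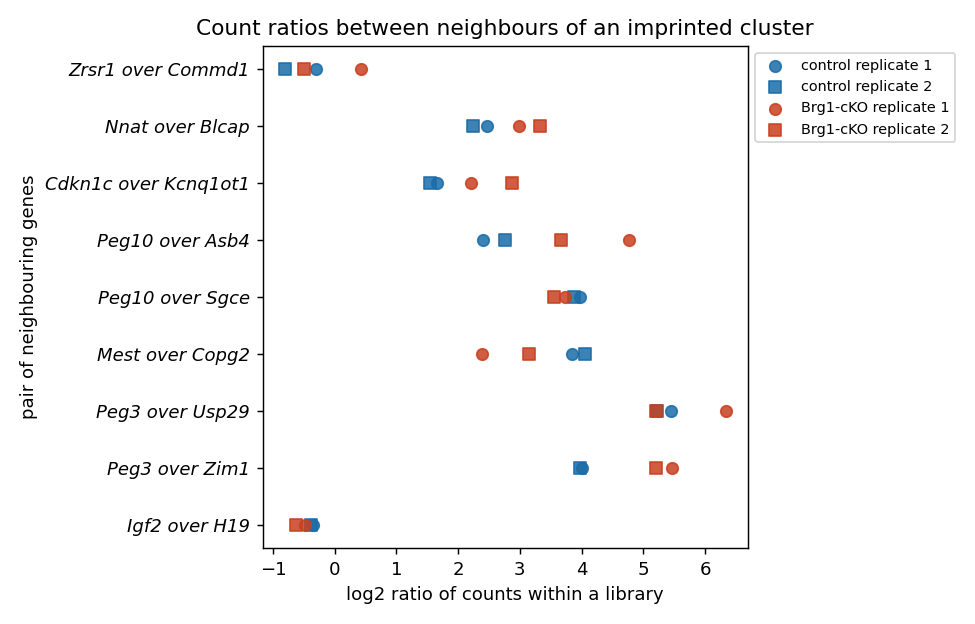
Log2 ratio of counts between 2 neighbours of an imprinted cluster in each library (1 point per library), which does not depend on how libraries are scaled. The ratios of Peg3 over Zim1, Peg10 over Asb4, Cdkn1c over Kcnq1ot1 and Nnat over Blcap were higher in both Brg1-cKO libraries and those of Mest over Copg2, Peg10 over Sgce and Igf2 over H19 lower, while Peg3 over Usp29 and Zrsr1 over Commd1 overlapped.

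The 10 pairs whose ratios were computed were chosen after the levels were seen. For Igf2r over Airn there was no ratio in Brg1-cKO replicate 1, where Airn had 0 counts.

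Of the genes that act on IGF signalling, Grb10 was below both controls and Igf2r on both sides of them. Grb10, an adaptor that damps insulin and IGF receptors, was at 1608 and 1576 CPM in control and 1250 and 1273 CPM in Brg1-cKO. The libraries of each group were close, and the log2 fold change was -0.34 (SE 0.06, edgeR adjusted p = 0.166; 0.00282 with DESeq2, 0.0679 with limma-voom). Igf2r, the receptor that carries IGF2 to lysosomes, was at 443 and 436 CPM against 515 and 374 CPM, on both sides of the controls (log2 fold change 0.02, SE 0.19). Airn, the noncoding RNA that silences Igf2r on the paternal chromosome, had 792 and 673 counts in the controls and 0 and 23 in Brg1-cKO, or 22.0 and 17.4 CPM against 0 and 2.14 CPM. Its log2 fold change of -4.21 had an SE of 2.18. Plagl1, a paternally expressed zinc finger transcription factor known to act on other imprinted genes, was at 341 and 320 CPM against 291 and 327 CPM, with overlapping groups.

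Markers of several cell types also differed between the groups. Mest, Igf2, H19 and Peg3 are known to be high in mesenchyme. The 12 stromal markers summed to 3592 and 3554 CPM in control and 2215 and 2140 CPM in Brg1-cKO. Of the 12, 10 lay below both controls, against 26.2% of all genes at 10 CPM or more. The collagen gene Col1a1 was at 1043 and 1026 CPM against 483 and 464 CPM, whereas its partner Col1a2 lay above both controls, at 589 and 582 CPM against 745 and 707 CPM. None of the 12 was at 0 in both Brg1-cKO libraries. Endothelial markers (8 of 10 below both controls, against the same 26.2%) summed to 758 and 760 CPM in control and 433 and 273 CPM in Brg1-cKO. Ureteric bud markers summed to 229 and 237 CPM against 154 and 108 CPM. Of the 10 tested, 7 lay below both controls, against 34.5% of all genes tested. Wnt9b, Wnt7b and Calb1 were at 0 in both Brg1-cKO libraries, as was Lcn2, which had only 6 and 0 counts in control. Hoxb7 was higher on average, at 23.4 and 29.2 CPM against 97.7 and 26.9 CPM. So was Sox8, at 8.43 and 7.64 CPM against 5.36 and 31.5 CPM, with Brg1-cKO on both sides of the controls. The 12 nephron progenitor markers summed to 2315 and 2301 CPM against 3088 and 2910 CPM. Of these, 6 lay above both controls, 2 below and 4 on both sides, against 23.7%, 26.2% and 39.3% of all genes at 10 CPM or more. Six2, a defining progenitor marker, was among those below, at 241 and 236 CPM against 233 and 126 CPM. The 12 early nephron markers summed to 1559 and 1559 CPM against 2762 and 2555 CPM, with 9 above both controls and 2 below. Immune markers summed to 142 and 137 CPM against 57.0 and 65.7 CPM. Of the 10, 8 lay below both controls, against 34.5% of all genes tested. The part of cell makeup in the levels of the imprinted genes was not tested.

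On chromosome 7 lies the cluster that carries the Prader-Willi and Angelman genes in humans. All 5 of its genes among the 42 had Brg1-cKO libraries on both sides of both controls, against 36.8% of all genes tested. Snhg14, the long RNA that runs from Snrpn to Ube3a and is not among the 42, was above both controls. It was at 17.0 and 13.9 CPM in control and 18.4 and 44.5 CPM in Brg1-cKO. Also outside the 42, Peg12 was at 26.5 and 23.1 CPM against 0.417 and 24.4 CPM, with overlapping groups. Atp10a was at 29.4 and 26.3 CPM against 73.6 and 18.2 CPM, on both sides of the controls. Ndn, which encodes the growth-restraining MAGE protein necdin, was at 73.8 and 86.3 CPM in control and 54.3 and 92.6 CPM in Brg1-cKO. Ube3a, a ubiquitin ligase that is imprinted mainly in neurons, was at 94.8 and 95.8 CPM against 87.6 and 100.3 CPM. Both genes had Brg1-cKO libraries on either side of the controls. Ube3a shares 27.3% of its exon bases with antisense genes, Snhg14 among them, and whether counting used strand was not given. Snrpn, a spliceosome protein gene, was at 6.76 and 7.85 CPM against 5.98 and 48.4 CPM, so its higher mean came from Brg1-cKO replicate 2. Without that library its log2 fold change turned from 1.89 to -0.31. Snrpn shares 27.3% of its exon bases with genes on its own strand (Gm38393 and Snurf), and how reads there were assigned was not given. Magel2 (7.51 and 7.77 CPM against 9.67 and 2.05 CPM) and Mkrn3 (2.89 and 1.81 CPM against 0 and 3.72 CPM) were scarce.

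The Dlk1-Dio3 cluster on chromosome 12 held the scarcest of the 42 genes. Dlk1, a paternally expressed transmembrane ligand related to Notch ligands, had 0 counts in all 4 libraries, which allows up to 0.0774 to 0.279 CPM depending on the library. Meg3, the maternally expressed noncoding RNA, had 1 and 0 counts in the controls and 0 and 5 in Brg1-cKO, and Rian had 1 and 2 against 0 and 0. The controls with these counts held H19 at 119055 and 125487 counts. Mirg, a microRNA host gene further along the same strand, had 181 and 194 counts in control and 762 and 11 in Brg1-cKO. These gave 5.04 and 5.01 CPM against 53.0 and 1.02 CPM, so the Brg1-cKO libraries lay on both sides of the controls. Its log2 fold change was 3.38 without Brg1-cKO replicate 2 and -2.32 without replicate 1. Dio3, the deiodinase that inactivates thyroid hormone, had 87 and 82 counts in control and 65 and 0 in Brg1-cKO.

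Among the remaining clusters, Nnat and Blcap on chromosome 2 were both below the controls. Nnat, a small membrane proteolipid read from the paternal chromosome within an intron of Blcap, was at 143 and 153 CPM in control and 129 and 129 CPM in Brg1-cKO. Blcap was at 25.8 and 32.3 CPM against 16.3 and 12.8 CPM, -0.99 on the log2 scale (SE 0.43, edgeR adjusted p = 0.349). For both genes the groups did not overlap. H13, a signal peptide peptidase, was at 181 and 156 CPM against 94.1 and 135 CPM (log2 fold change -0.56, SE 0.25). Commd1, of copper handling, was at 18.1 and 19.8 CPM against 16.6 and 10.9 CPM, also below both controls. Zrsr1, a splicing factor gene inside its intron, was at 14.6 and 11.3 CPM against 22.3 and 7.72 CPM, on both sides. Sfmbt2, a Polycomb group gene, stayed under 10 CPM (7.65 and 8.57 CPM against 0.348 and 5.95 CPM), as did Nap1l5, a nucleosome assembly gene (0.362 and 0.490 CPM against 1.74 and 0.465 CPM).

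For several abundant genes the 2 Brg1-cKO libraries pointed opposite ways. Gnas, the gene of the stimulatory G protein alpha subunit, was at 130 and 125 CPM in control and at 206 and 57.7 CPM in Brg1-cKO. Its log2 fold change was -1.17 without Brg1-cKO replicate 1 (edgeR adjusted p = 2.15e-07) but 0.67 with only replicate 1 kept (7.02e-07), where the single library left in the group is taken to vary as the controls do. Trappc9, of a vesicle tethering complex, was at 50.3 and 51.1 CPM against 96.8 and 20.7 CPM, and its values without those libraries were -1.32 and 0.91. Slc38a4, an amino acid transporter of fetal liver and placenta, was at 116 and 113 CPM against 56.3 and 138 CPM, and gave 0.24 and -1.05. Inpp5f, a phosphoinositide phosphatase, was at 63.7 and 68.4 CPM against 104 and 58.1 CPM. Impact, a regulator of translation, was at 45.6 and 53.7 CPM against 67.3 and 52.1 CPM, and its groups overlapped.

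**Figure D4:**
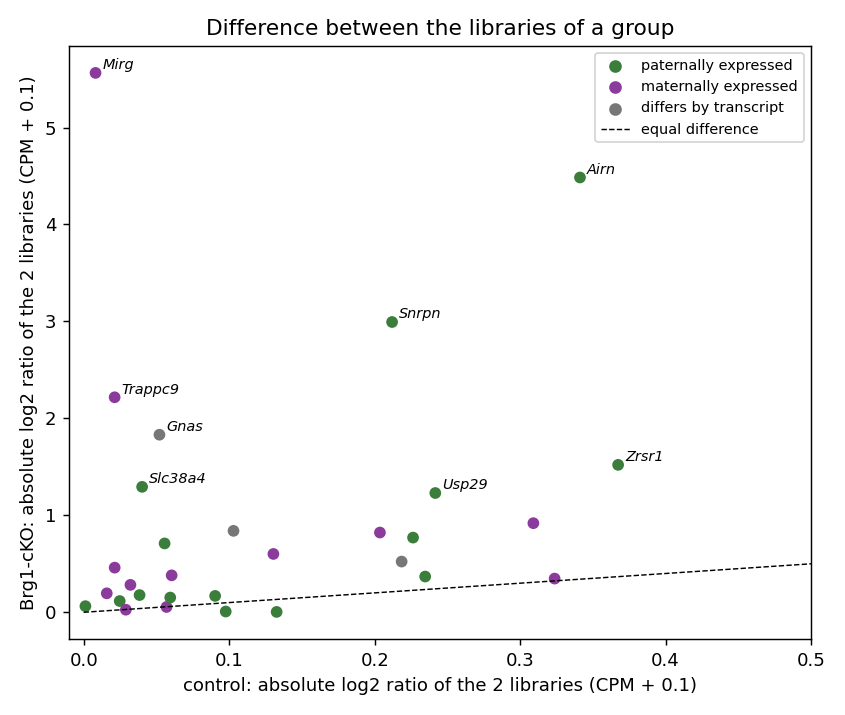
Absolute log2 ratio between the 2 libraries of a group for the 30 imprinted genes at 10 CPM or more, control on the x axis and Brg1-cKO on the y axis (CPM + 0.1), with the dashed line marking equal difference. No gene exceeded 1 in control (largest 0.37, Zrsr1), whereas 8 did in Brg1-cKO (largest 5.56, Mirg), and Mest, Cdkn1c and Grb10 lie near the origin.

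The median absolute log2 ratio between the libraries of a group was 0.08 in control and 0.49 in Brg1-cKO for these 30 genes. For all 11222 genes tested at that level it was 0.10 and 0.73, and 38.8% of them differed by over 2-fold in Brg1-cKO. Of the 30, 12 had Brg1-cKO libraries on both sides of both controls, against 39.3% of all genes at that level.

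Genes of the machinery that keeps imprints were followed as well. Of 25 such genes, 22 were tested, all of them at 10 CPM or more in either group. At an unadjusted p under 0.05 in edgeR 1 was higher and 1 lower, near the 7.66% and 5.22% of all genes at that level. None passed adjustment. Arid4b, a chromatin protein described at the Prader-Willi imprinting centre, was at 163 and 163 CPM in control and 236 and 244 CPM in Brg1-cKO (log2 fold change 0.56, SE 0.12). Smchd1, a chromosome structure protein needed to silence some imprinted genes, was at 237 and 232 CPM against 182 and 188 CPM (log2 fold change -0.34, SE 0.12). Dnmt1, which copies DNA methylation at replication, was at 498 and 497 CPM against 501 and 455 CPM. Trim28, the corepressor that ZFP57 recruits, was at 1091 and 1069 CPM against 1309 and 902 CPM. Zfp57 itself was at 52.2 and 60.2 CPM against 64.7 and 81.8 CPM, above both controls (log2 fold change 0.38, SE 0.25), and Ctcf was at 235 and 219 CPM against 205 and 254 CPM.

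Of 34 further imprinted genes outside the 42, 26 were tested. At an unadjusted p under 0.05 in edgeR, 4 were lower and none higher, where all genes tested had 12.9% and 5.44%, and none passed adjustment. Of the 26, 9 lay below both controls and 4 (Ddc, Nap1l4, Osbpl5 and Snhg14) above both, against 34.5% and 17.5% of all genes. The 4 at the unadjusted threshold were Begain, Htr2a, Qpct and Nespas, and the last 3, under 2 CPM in control and at 0 counts in Brg1-cKO, passed the low-count filter through the controls alone. Begain, a paternally expressed gene beside Dlk1, was at 24.2 and 18.2 CPM in control and 4.38 and 1.95 CPM in Brg1-cKO (log2 fold change -2.74, SE 0.79, edgeR adjusted p = 0.187). The median log2 fold change of the 26 was -0.32.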

How the data were processed

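RNA was counted per gene in 4 libraries, 2 control and 2 Brg1-cKO, each from 3000 sorted cells. Per the labels' protocols, mRNA was taken up on magnetic beads, libraries were strand-specific and randomly primed, and reads were single-end, 75 bp long. The deposited values are raw whole-number counts per gene. Per the submitters' processing notes, mm10, TopHat and DESeq2 were used. How reads were counted, with which annotation and whether by strand, is not given in the sources used here.

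Symbols, positions and exon lengths came from GENCODE M21 (GRCm38, the same build), which matched 52403 of 52636 identifiers. Reads given to no gene, 31.8% to 32.4% of all reads in control and 65.5% to 72.1% in Brg1-cKO, were left out. The fit used edgeR 4.0.16 in R 4.3.3 on all genes with group as its only term, TMM scaling, filterByExpr's default filter (minimum count 10), robust dispersion estimates, the quasi-likelihood F test and Benjamini-Hochberg adjustment. Standard errors are the log2 fold change over the root of the F statistic. The genes followed and the lists were chosen with earlier results of these data known. All 42 genes are given, those at 10 CPM or more in full; list genes are named at 10 CPM and an unadjusted p under 0.05, and other list genes named were chosen after their values were seen. The code was tested on simulated counts. Alternatives used DESeq2 1.42.0, limma 3.58.1, other scalings and filters, a replicate block and each library left out; limma-voom with weights per group was added after seeing the data. A count of 0 allows up to 3 counts, and such limits cover counting error only.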

Additional observations from a re-analysis of the deposited data

Results flagged for a closer look

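Reads outside the counted genes, which no comparison above uses, stood above the control level of 15.4% to 16.5% of uniquely aligned reads in both Brg1-cKO libraries, at 49.5% in replicate 1 and 57.2% in replicate 2. Their part in the levels of the imprinted genes was not tested.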

How the results depend on the processing

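With 2 libraries a group, the counts of calls depended on the tool. All genes past an adjusted p of 0.05 numbered 0 in edgeR's quasi-likelihood test (3328 at an unadjusted p under 0.05), 2471 with the likelihood ratio test, 2038 with DESeq2, 327 with limma-voom, 134 with limma-voom and weights per group and 156 with the replicate block. The imprinted genes among them numbered 0, 7, 6, 2, 1 and 2 (Mest and Cdkn1c with the block). With 1 library left out, all calls ran from 16 to 13262 and those of imprinted genes from 0 to 31, the high counts without a Brg1-cKO library. In the same fits, imprinted genes at an unadjusted p under 0.05 ran from 1 to 9 higher and from 2 to 23 lower, and those whose groups did not overlap from 21 to 38. Other scalings and filters, the block and the other tools kept these 3 counts within 1.5 times. Over them the paternal median ran from -0.358 to -0.184 and the maternal one from -0.196 to -0.0917, all below 0. The median of all genes moved more, from -0.609 with no filter to 0.0293 at 10 CPM in 2 libraries. With no filter and with DESeq2 (all genes -0.276), both class medians lay above that of all genes. The libraries' spread in the 2 class medians (SD 0.794 and 0.943) was larger than the class medians themselves, so it sets no useful limit on them.

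Of 535 values for single imprinted genes under an alternative, 38 changed sign. With RLE scaling these were Sgce (0.014), Ube3a (0.034) and Dio3 (0.053), and with DESeq2 the same 3 (0.014, 0.034 and 0.054). They were Igf2r with total counts (-0.033) and with no filter (-0.016), and Ube3a at 10 CPM in 2 libraries (0.00565). With limma-voom they were Gnas (-0.10) and Trappc9 (-0.017), and with weights per group the same 2 (-0.10 and -0.019). With the replicate block they were Slc22a18 (-0.015), Igf2r (-0.0018), Gnas (-0.22) and Trappc9 (-0.17). With 1 library left out, log2 fold changes ran from -9.13 to 0.64 for Mkrn3, -9.02 to 0.97 for Dio3, -7.28 to 3.83 for Slc22a18, -2.32 to 3.38 for Mirg, -1.93 to 0.32 for Magel2, -1.32 to 0.91 for Trappc9, -1.17 to 0.67 for Gnas, -1.05 to 0.24 for Slc38a4, -0.77 to 0.77 for Zrsr1, -0.62 to 0.10 for Kcnq1ot1, -0.58 to 0.18 for Ndn, -0.31 to 2.70 for Snrpn, -0.26 to 0.21 for Igf2r, -0.25 to 0.59 for Copg2, -0.21 to 0.64 for Inpp5f and -0.14 to 0.0465 for Ube3a. The cause was not tested. Same-numbered libraries did not deviate together (r = -0.0171 across genes), so the numbers are not shown to pair them. Genes under about 2 CPM have few counts in Brg1-cKO, which limits what can be said of them. The Brg1-cKO libraries also differed at higher levels, where 38.8% of all genes tested at 10 CPM or more differed by over 2-fold between them.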

Other observations

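Some genes beside the imprinted clusters, picked after their values were seen, add to the picture of 2 clusters. Rtl1, a paternally expressed retrotransposon-derived gene between Dlk1 and Rian, had 0 counts in all 4 libraries, like Dlk1. B830012L14Rik, a noncoding gene between Rian and Mirg, had 3 and 30 counts in the controls and 0 and 40 in Brg1-cKO, with Brg1-cKO on both sides of the controls. The high value of Snhg14 was in the same Brg1-cKO library as that of Snrpn. Gm38393, which shares exons with Snrpn, was at 7.15 and 6.66 CPM against 0 and 9.02 CPM.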
